A study of Mus musculus with 7 samples.

Results

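Genes that break down or hold together the extracellular matrix were compared in mouse nasal tissue after inhalation of diesel exhaust particles (DEPs). They were the tissue inhibitors of metalloproteinases *Timp1*, *Timp2*, *Timp3* and *Timp4*, the matrix metalloproteinases *Mmp2*, *Mmp3*, *Mmp9*, *Mmp13* and *Mmp14*, and *Sparc*. Every array probe whose transcript belongs to one of these symbols was taken, which gave 13 probes for the 10 genes, out of 39429 probes for 32095 genes or transcripts on the array. All 13 probes were bright enough to be tested, beside 25162 probes for 20664 genes or transcripts in all.

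Matrix metalloproteinases are zinc-dependent enzymes that cut collagens and other matrix proteins, and most are secreted as inactive proforms. TIMP proteins bind the active site of these enzymes and block it, so that the balance of both families sets how fast matrix is turned over. SPARC is a collagen-binding matrix protein made by bone-forming cells, odontoblasts and fibroblasts, and many of these genes are known to be induced in stromal cells by inflammatory cytokines.

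The mice were female BALB/c, given as 6 weeks of age, and either inhaled 100 μg/m3 DEPs suspended in saline or received saline as control. The same age is given for both exposure times, and the age when the tissue was taken, which may differ between them, is not stated. Exposure lasted 4 weeks or 8 weeks, and the study's text describes the 4-week exposure. By the methods, the tissue held septum and turbinate and reached back along the palate to the second molar. On each of 4 arrays (4 weeks) and 3 arrays (8 weeks), DEP RNA carried Cy5 and control RNA carried Cy3, without a dye swap. The sources used here do not say how many mice gave RNA to an array or whether controls were shared, and p-values then measure only the spread between these arrays. All arrays of 4 weeks shared 1 slide and all of 8 weeks shared a different one, and exposure time and slide cannot be told apart. A dye effect of a probe that is the same on all arrays would stand in each ratio but cancels between 8 and 4 weeks.

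Log2 ratios of different arrays correlated at 0.46 to 0.53 within 4 weeks, at 0.72 to 0.88 within 8 weeks and at 0.09 to 0.30 between the exposure times, over the probes tested. *Omp*, the marker of mature olfactory neurons, and *Col1a1*, the main collagen of bone and dermis, exceeded background clearly in the DEP and the control channel of 7 of 7 arrays. *Scgb1a1*, a secretory cell marker of the airway, was so on 6 arrays in the DEP channel and on 4 in the control channel. In such a mixed tissue, fewer cells of a type and less RNA per cell cannot be told apart.

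Promoters are shown for the 4 genes whose ratios differed most clearly between the exposure times, of which *Mmp3* and *Mmp13* both lie on chromosome 9. RefSeq (GRCm38.p6) promoters were given for 8 of the 10 genes, *Mmp2* and *Mmp9* being the others. Each line holds the 150 bases before the annotated start, and capitals mark matches on either strand. The letters searched were TGAGTCA for the AP-1 transcription factor family. For the TATA box that places the transcription start they were TATAAA. For the ETS family of transcription factors they were AGGAAG.
Timp1, chrX:20870016-20870165, plus strand: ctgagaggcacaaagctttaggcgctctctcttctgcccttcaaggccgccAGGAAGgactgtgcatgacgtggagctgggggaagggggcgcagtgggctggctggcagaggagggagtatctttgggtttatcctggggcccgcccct
Mmp3, chr9:7445672-7445821, plus strand: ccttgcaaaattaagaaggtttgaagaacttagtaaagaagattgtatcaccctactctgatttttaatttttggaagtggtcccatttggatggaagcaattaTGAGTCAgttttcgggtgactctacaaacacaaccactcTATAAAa
Mmp13, chr9:7272364-7272513, plus strand: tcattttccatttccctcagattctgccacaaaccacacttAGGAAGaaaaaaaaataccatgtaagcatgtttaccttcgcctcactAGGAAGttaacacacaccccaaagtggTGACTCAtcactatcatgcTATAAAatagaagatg
Sparc, chr11:55420081-55420230, minus strand: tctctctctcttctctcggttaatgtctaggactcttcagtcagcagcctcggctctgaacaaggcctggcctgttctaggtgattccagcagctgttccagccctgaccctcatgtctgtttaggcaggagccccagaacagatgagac

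Within 250 bases before the start, the AP-1 letters were found in 2 of the 8 promoters, *Mmp3* and *Mmp13*, and in 4.46% of all 32851 promoters. Its first letter lay 46 bases before the start in *Mmp3* and 35 bases before it in *Mmp13*, where it stands on the minus strand. The TATA box letters were in the same 2 promoters, against 12.4% of all. Their first letter lay 7 bases before the annotated start in *Mmp3* and 16 bases before it in *Mmp13*. The ETS letters were in 6 of the 8, against 29.5% of all. None of these matches overlapped another motif, and a match is a description of letters only.

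After 4 weeks, 8 of the 10 genes were down-regulated in DEP-exposed nasal tissue at an adjusted p of at most 0.05, and 0 were up-regulated. Of all genes tested, 16.5% were lower and 21.9% higher by the same rule. The median log2 ratio of the 10 genes was -0.51, against 0.00 over all genes tested. At the stricter rule of an unadjusted p of at most 0.01 and a 2-fold change, *Timp1* and *Mmp13* were lower on the brightest probe of each gene. Of all genes, 0.363% met this rule in the lower and 0.934% in the higher direction. The *Sparc* probe A_55_P2046807, not the brightest of its gene, met it as well, at -1.02. With the processed signals of the scanner software, 3 of the 10 genes met it. The study's own list of lowered genes holds *Timp1*, *Mmp3*, *Mmp13* and *Sparc*, and since it was made from these arrays it is not independent evidence of their direction.

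**Figure D1:**
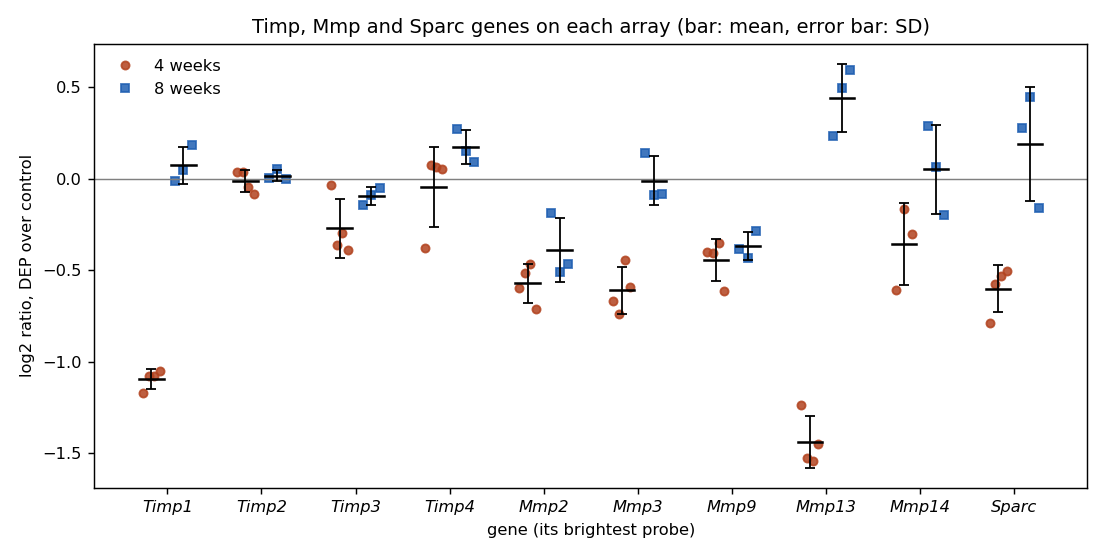
Log2 ratio of DEP over control (vertical axis) for the brightest probe of each gene (horizontal axis) on the 4 arrays of 4 weeks (circles) and the 3 arrays of 8 weeks (squares), with mean and SD. *Timp1* and *Mmp13* lie below -1 on all 4 arrays of 4 weeks, while *Mmp2* and *Mmp9* lie below 0 on all 7 arrays.

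Among the inhibitors, *Timp1*, the inducible member of the family, had log2 ratios of -1.17, -1.08, -1.08 and -1.05 on the 4 arrays of 4 weeks. On the 3 arrays of 8 weeks it stood at -0.01, 0.05 and 0.18. The exposure times did not overlap, and every 4-week array was more than 2-fold lower in DEP tissue. How many of all genes had ratios without overlap was not counted, for this gene or those below. The 4-week mean was -1.10 ± 0.05 (SD, n = 4), a 2.14-fold reduction with an adjusted p of 6.08e-06. After 8 weeks the mean was 0.07 ± 0.10 (SD, n = 3), which did not pass the test (adjusted p = 0.359).

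*Timp3*, the inhibitor that stays bound to the matrix, had log2 ratios of -0.03, -0.36, -0.30 and -0.39 after 4 weeks. Its 8-week ratios were -0.15, -0.09 and -0.05, inside the range of the 4-week arrays. The 4-week mean of -0.27 passed the test (adjusted p = 0.0140) and the 8-week mean of -0.10 did not (adjusted p = 0.364). Without 4-week replicate 2 or replicate 4 the 4-week call was lost, with adjusted p of 0.060 and 0.059. Replicate 1, close to 0, stood apart from the other 3.

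*Timp2*, which also helps membrane-bound *Mmp14* protein to activate the *Mmp2* proform, was read by a pair of probes. The brighter one gave 0.04, 0.04, -0.04 and -0.08 after 4 weeks and 0.00, 0.05 and -0.00 after 8 weeks, and neither mean passed the test. The other gave -0.07, -0.18, -0.20 and -0.25 after 4 weeks, a mean of -0.18 that passed it (adjusted p = 0.0235), and -0.03, -0.15 and -0.10 after 8 weeks. The probes of this gene thus disagreed in whether they passed the test at 4 weeks.

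*Timp4*, the most tissue-restricted inhibitor, gave a dim signal, well above background on 3 of 4 DEP and 2 of 4 control channels at 4 weeks. Its log2 ratios were -0.38, 0.08, 0.07 and 0.05 after 4 weeks and 0.28, 0.15 and 0.09 after 8 weeks. Neither mean passed the test, and the lowest 4-week value came from replicate 1, where the DEP signal did not clear background. The raw control signal there was 170, against 87.5 to 93.5 on the other 4-week arrays. The raw DEP signal was 119.5, against 96 to 110.

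The collagenase gene *Mmp13*, made by bone-forming cells and hypertrophic chondrocytes, had the lowest 4-week ratio of the 10 genes. After 4 weeks it gave -1.24, -1.53, -1.54 and -1.45, and after 8 weeks 0.23, 0.50 and 0.59. All 4-week arrays were below 0 and all 8-week arrays above it. The 4-week mean was -1.44 ± 0.14 (SD, n = 4), a 2.71-fold reduction with an adjusted p of 1.02e-05. The 8-week mean was 0.44 ± 0.19 (SD, n = 3), a 1.36-fold increase with an adjusted p of 0.00615. With median centring in place of loess it was 0.14 and did not pass (adjusted p = 0.17). With loess, the 8-week mean also did not pass under the test named in the methods.

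*Mmp3* encodes stromelysin, which cuts many matrix proteins and activates other proforms. Its log2 ratios were -0.67, -0.74, -0.44 and -0.59 after 4 weeks, and 0.14, -0.09 and -0.08 after 8 weeks, without overlap. The 4-week mean was -0.61 ± 0.13 (SD, n = 4; adjusted p = 0.000358) and the 8-week mean was -0.01 ± 0.13 (SD, n = 3; adjusted p = 0.937). The probe was dim, well above background on 2 of 4 DEP and 3 of 4 control channels at 4 weeks and on 1 of 3 of each at 8 weeks. With the processed signals of the scanner software the 4-week mean was -1.45, against -0.60 with no background subtraction and -0.44 with the background fitted on all spots.

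The gelatinase genes *Mmp2* and *Mmp9* had lower ratios at both exposure times. Without a dye swap, a lower level in DEP tissue and a dye effect of these probes cannot be told apart. *Mmp2*, a product of fibroblasts and other stromal cells, gave -0.60, -0.51, -0.46 and -0.71 after 4 weeks and -0.19, -0.51 and -0.47 after 8 weeks. Their means were -0.57 ± 0.11 (SD, n = 4; adjusted p = 0.000618) and -0.39 ± 0.18 (SD, n = 3; adjusted p = 0.00689). All 7 arrays were below 0 and the exposure times overlapped. Without 8-week replicate 2 the 8-week mean no longer passed the test (adjusted p = 0.0569), and with median centring it was -0.66.

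*Mmp9*, known from neutrophil granules and osteoclasts, was printed as 10 spots of 1 probe and cleared background on 3 of 4 arrays in each channel at 4 weeks. The means over spots were -0.40, -0.41, -0.35 and -0.61 after 4 weeks and -0.38, -0.43 and -0.29 after 8 weeks. The 4-week mean was -0.44 ± 0.12 (SD, n = 4; adjusted p = 0.000851) and the 8-week mean -0.37 ± 0.07 (SD, n = 3; adjusted p = 0.00372). In 4-week replicate 4, the lowest array, 1 spot at -2.33 widened the SD over spots to 0.61, against 0.07 to 0.15 on the other arrays. Taking the median over spots left the 4-week mean at -0.39. With the processed signals the means were -0.76 and -0.78.

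*Mmp14* encodes the membrane-bound enzyme that activates the *Mmp2* proform. After 4 weeks it gave -0.61, -0.16 and -0.30 on replicates 1, 3 and 4, while the spot of replicate 2 was marked as not uniform and left out of the fit. After 8 weeks it gave 0.29, 0.06 and -0.20, which reached down to the 4-week range. The 4-week mean of -0.36 passed the test narrowly (adjusted p = 0.0484, n = 3), and in 10 of 17 alternative settings it did not. It was -1.76 with the spot of replicate 2 kept and -0.23 without replicate 1. The 8-week mean was 0.05 (adjusted p = 0.773).

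*Sparc* was read by 3 probes of the same transcript. The brightest gave -0.79, -0.57, -0.53 and -0.51 after 4 weeks and 0.28, 0.45 and -0.16 after 8 weeks. A second, A_55_P2046807, gave -1.13, -1.01, -0.96 and -0.98 after 4 weeks and -0.04, 0.28 and 0.54 after 8 weeks. On both probes every 4-week array was below every 8-week array, with 4-week means of -0.60 (adjusted p = 0.00248) and -1.02 (adjusted p = 0.000114). Neither 8-week mean passed the test, at 0.19 and 0.26. On the brightest probe the 8-week mean was 0.36 and passed without 8-week replicate 3 (adjusted p = 0.0274), and was 0.06 without replicate 2. As the mean of the 3 probes it was 0.20 and passed (adjusted p = 0.0150). The raw control signal at 4 weeks was 55553.5 to 60984 on the brightest probe and 2803 to 3065 on A_55_P2046807. Whether so bright a signal narrowed the ratio of the brightest probe was not tested.

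The third *Sparc* probe, A_55_P2122835, was dim, well above background on 3 of 4 DEP and 1 of 4 control channels at 4 weeks. It gave 0.19, 0.20, 0.09 and 0.10 after 4 weeks and 0.22, -0.04 and 0.27 after 8 weeks, and its 4-week mean of 0.14 did not pass the test (adjusted p = 0.0956). This probe therefore did not show the reduction that the brighter probes of the gene showed.

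**Figure D2:**
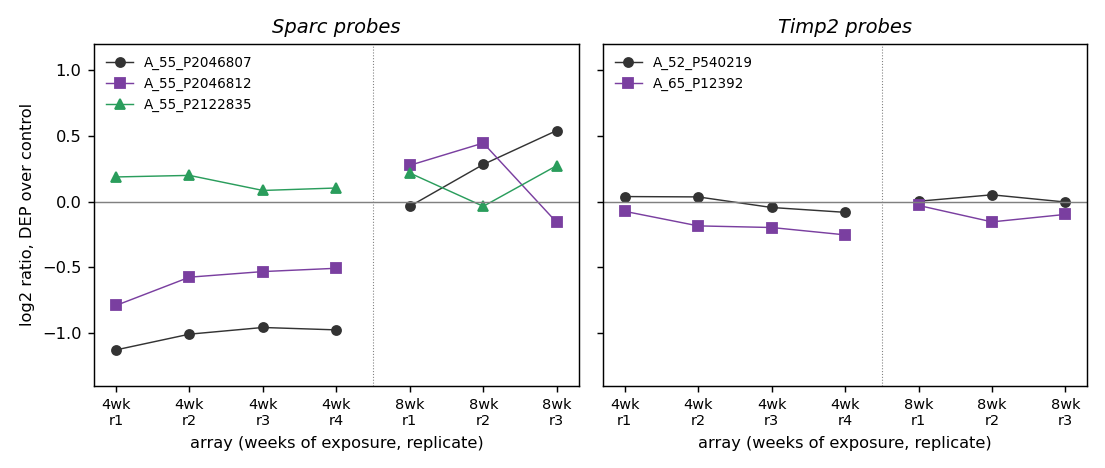
Log2 ratio of DEP over control (vertical axis) on each array (horizontal axis, weeks and replicate) for the 3 probes of *Sparc* (left) and the pair of probes of *Timp2* (right). The brighter *Sparc* probes lie between -1.13 and -0.51 on the 4-week arrays, and the dim one between 0.09 and 0.20.

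After 8 weeks, *Mmp2* and *Mmp9* were lower and *Mmp13* was higher, and the other 7 genes did not pass the test. Of all genes tested, 17.1% were lower and 20.5% higher. The median log2 ratio of the 10 genes was 0.03, against 0.01 over all genes tested. None of the 10 met the rule of an unadjusted p of at most 0.01 and a 2-fold change, which 0.847% of all genes met in the lower and 2.1% in the higher direction. Median centring used all non-control spots, dim ones included, and left the median of the probes tested at -0.11 at 8 weeks. With it, *Timp1*, *Timp2* and *Timp3* were called lower as well and *Mmp13* was not called. Relative to that median, these were -0.12, -0.11, -0.29 and 0.25. Of all 25162 probes, median centring called 8337 lower and 2833 higher at 8 weeks, against 4402 and 4755 with loess.

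The difference between the exposure times was tested itself. From 4 to 8 weeks, the log2 ratio of *Timp1*, *Mmp3*, *Mmp13* and *Sparc* rose, and 0 of the 10 genes fell. Of all genes tested, 15% rose and 16.3% fell. The rise was 1.17 for *Timp1* (95% confidence interval 0.99 to 1.34, adjusted p = 5.79e-05) and 1.88 for *Mmp13* (1.61 to 2.15, adjusted p = 4.27e-05). For *Mmp3* it was 0.60 (0.37 to 0.83, adjusted p = 0.00371) and for *Sparc* 0.79 (0.45 to 1.13, adjusted p = 0.00633).

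For *Mmp2* the difference was 0.18 (-0.06 to 0.42) and for *Mmp9* 0.08 (-0.12 to 0.27), so a change of their ratio between the times was not shown. The same held for *Timp2*, *Timp3* and *Timp4*, with 0.03, 0.18 and 0.22. Without 4-week replicate 1, the *Timp3* difference was 0.25 and passed (adjusted p = 0.0271), and *Timp4* at 8 weeks was called higher at its value of 0.17 (adjusted p = 0.0338). For *Mmp14* the difference of 0.41 (0.02 to 0.80) had an adjusted p of 0.104. With the background fitted on all spots, the *Mmp3* difference was 0.44 and did not pass the test (adjusted p = 0.0673), and with the processed signals it was 1.5.

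The channels were then looked at one by one, after scaling the arrays to a common distribution of mean intensity. In the control channel, on the brightest probe of each gene, every 4-week array was above every 8-week array for *Timp1*, *Mmp3*, *Mmp13* and *Sparc*, which is 4 of the 10 genes, and 17.7% of all genes did the same. Every 8-week control was above every 4-week control for *Timp3*, against 26.8% of all genes. In the DEP channel, the 4-week arrays were all higher for *Timp1*, against 21% of all genes, and the 8-week arrays for *Timp3*, *Timp4*, *Mmp13* and *Sparc*, against 25.3%.

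The control level of *Timp1* was 10.73, 10.67, 10.86 and 10.91 in log2 intensity at 4 weeks and 9.21, 9.28 and 9.31 at 8 weeks, a mean difference of -1.53. Its DEP level was 9.56, 9.59, 9.78 and 9.86 at 4 weeks and 9.20, 9.33 and 9.49 at 8 weeks, a mean difference of -0.36. The controls thus differed more between the exposure times than the DEP samples did.

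*Mmp13* had a mean control level of 10.28 ± 0.12 (SD, n = 4) at 4 weeks, and control levels of 9.03, 8.94 and 9.13 at 8 weeks. In the DEP channel it stood at 9.04, 8.84, 8.56 and 8.91 at 4 weeks and 9.26, 9.43 and 9.72 at 8 weeks. Between the times, the mean control level changed by -1.25 and the mean DEP level by 0.63. For *Mmp3* the control means were 7.10 and 6.37 and the DEP means 6.49 and 6.36, and for the brightest *Sparc* probe the control means were 15.69 and 15.40 and the DEP means 15.09 and 15.59. The probe A_55_P2046807 of *Sparc* did not show lower controls at 8 weeks, with control means of 11.29 and 11.45 and DEP means of 10.27 and 11.72.

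Levels between arrays depend on the scaling, and the 4-week and 8-week controls also differ in slide and may differ in age. Without scaling between arrays, the same 4 genes were higher in every 4-week control, but so were 30.6% of all genes, and 0 of the 10 genes were higher in every 8-week control, against 14.5%. In the DEP channel, *Timp1* was then higher on every 4-week array, against 31.4% of all genes, and *Timp4* and *Mmp13* on every 8-week array, against 15.8%. With the processed signals, the median level of all genes was higher at 8 weeks, by 0.71 in the control and by 0.61 in the DEP channel. *Timp1*, *Mmp3* and *Mmp13* were then higher in every 4-week control, against 1.38% of all genes, and *Timp2*, *Timp3* and *Timp4* in every 8-week control, against 42.3%. In the DEP channel, 0 of the 10 genes were then higher on every 4-week array, against 2.42%, and *Timp2*, *Timp3*, *Timp4*, *Mmp13* and *Sparc* on every 8-week array, against 41.5%. The mean DEP level of *Timp1* differed between the times by 0.20 with the processed signals, against -0.36 as scaled above. Less the median change of all genes, the processed difference was -0.42. Exposure time and slide cannot be told apart in these levels either.

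**Figure D3:**
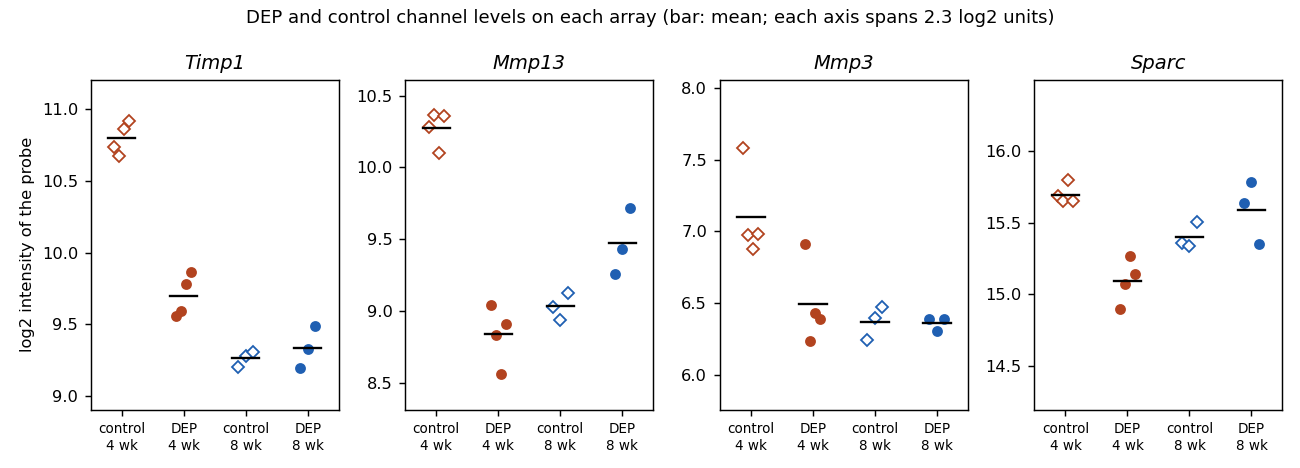
Log2 intensity (vertical axes, all of the same length) of the brightest probe of *Timp1*, *Mmp13*, *Mmp3* and *Sparc* in the control channel (open diamonds) and DEP channel (filled circles) of each array at 4 and 8 weeks, with means as bars. For all 4 genes the 4-week controls lie above the 8-week controls.

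Other genes of matrix turnover were counted by lists. Of the 7 other metalloproteinase genes tested, out of 18 listed, 2 were lower and 1 higher after 4 weeks, and 1 lower and 2 higher after 8 weeks. They are named here after their values were seen. *Mmp23* was at -0.37 and *Mmp20*, the enamel metalloproteinase, was lower although not well above background on any 4-week array, while *Mmp17* was at 0.18. After 8 weeks *Mmp24* was lower, without clearing background in DEP tissue on any 8-week array, and *Mmp20* (0.43) and *Mmp11* (0.25) were higher. Of 18 ADAM and ADAMTS genes tested, which encode related proteases, 8 were lower and 0 higher after 4 weeks, and 0 lower and 4 higher after 8 weeks.

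In the plasminogen system, whose plasmin activates several metalloproteinase proforms, 3 of 6 genes were lower after 4 weeks. They were tissue plasminogen activator *Plat* (-0.83), the urokinase receptor *Plaur* (-0.58) and the inhibitor *Serpine2* (-0.26), and after 8 weeks *Serpine2* alone was called, at -0.55. Of 11 genes for activators and surface anchors, *Cd44* (-0.28) and *Cd63* (-0.23) were lower after 4 weeks. At 8 weeks *Cd44* (0.44), *Cd63* (0.20) and the membrane inhibitor *Reck* (0.49) were higher, and *Bsg* (-0.51) and *Hpn* (-0.59) lower. These genes too were named after their values were seen.

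Matricellular and collagen genes were counted next. Of 17 genes of the SPARC family and other matricellular proteins, 12 were lower and 1 higher after 4 weeks, with a median log2 ratio of -0.42, and 3 were lower and 6 higher after 8 weeks, with a median of 0.15. *Postn*, which encodes the collagen-binding protein periostin, was at -1.30 ± 0.14 (SD, n = 4) after 4 weeks and at 0.69 ± 0.20 (SD, n = 3) after 8 weeks. Of 19 genes for fibrillar collagens and their processing, 12 were lower and 0 higher after 4 weeks, and 0 lower and 5 higher after 8 weeks. *Col3a1*, the collagen of loose connective tissue, was at -1.11 ± 0.15 (SD, n = 4) and then at 0.91 ± 0.12 (SD, n = 3).

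Of 15 genes for cytokines and transcription factors known to induce metalloproteinases, 7 were lower and 1 higher after 4 weeks, and 1 lower and 3 higher after 8 weeks. *Il6*, an inflammatory cytokine, was at -2.08 ± 0.21 (SD, n = 4) after 4 weeks (adjusted p = 8.73e-06), and was not well above background on any 8-week array. For 4 of the members, the genes of the smallest root mean square difference in log2 ratio over the 7 arrays were sought. For *Mmp13* they were *Cebpd* (0.18), *Postn* (0.20) and *Fam25c* (0.21), and for *Mmp3* *Plaur* (0.08), *Gbp2* (0.09) and *Lce3b* (0.09). For *Sparc* they were *Ibsp* (0.17), *Mfap4* (0.18) and *Pinlyp* (0.19), and for *Timp1* a transcript without a gene symbol (0.13), *Tubb6* (0.14) and *Bcl3* (0.15).

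**Figure D4:**
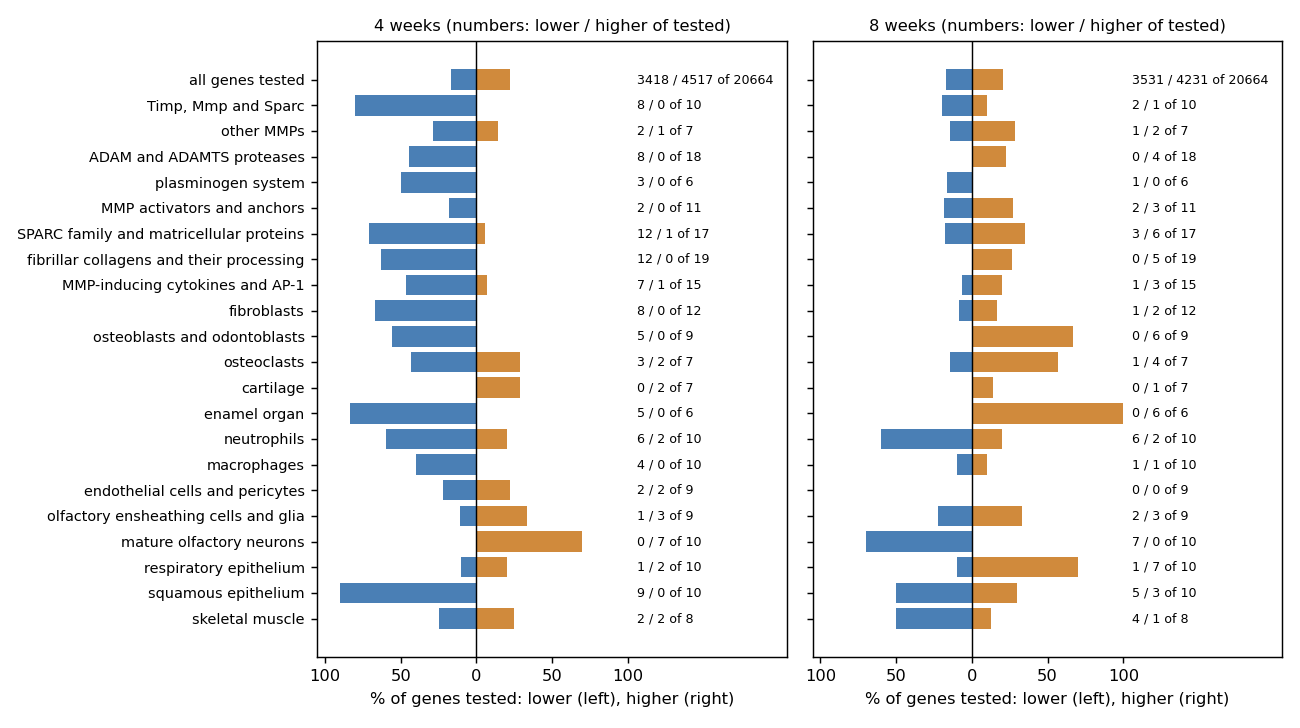
Share of genes tested in each list (horizontal axis, per cent) that were lower (left bars) or higher (right bars) at an adjusted p of at most 0.05 after 4 weeks and after 8 weeks, with the counts printed beside them. The 10 genes stand second, with 8 lower after 4 weeks and 2 lower and 1 higher after 8 weeks, under the bars of all genes tested.

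Markers of hard tissue were counted beside the 10 genes. On the brightest probe of each gene and with loess, *Mmp13* alone was called both lower after 4 weeks and higher after 8 weeks. Its 8-week call was lost with median centring and under the test named in the methods. As the mean of its probes, *Sparc* was also called lower after 4 weeks (-0.49) and higher after 8 weeks (0.20). Of 6 enamel organ genes, 5 were lower after 4 weeks and 6 were higher after 8 weeks, and the mean log2 ratio of the list was -1.42 to -1.21 on the 4-week arrays and 0.96 to 1.18 on the 8-week arrays. *Ambn*, which encodes the enamel matrix protein ameloblastin, was at -2.41 ± 0.11 (SD, n = 4) and then at 1.52 ± 0.29 (SD, n = 3). *Amtn* did not clear background in DEP tissue on any 4-week array. Of 9 osteoblast and odontoblast genes tested, 5 were lower after 4 weeks and 6 higher after 8 weeks, with list means of -0.45 to -0.37 and 0.40 to 0.49. *Dspp*, the dentin matrix gene, was at -1.17 ± 0.04 (SD, n = 4) and then at 1.41 ± 0.17 (SD, n = 3). The part of these tissues in the members' ratios was not tested.

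Marker genes of other cell types were counted as well. Of 12 fibroblast genes, 8 were lower after 4 weeks, with list means of -0.33 to -0.28, and 1 was lower and 2 higher after 8 weeks, with list means of 0.01 to 0.10. Of 7 osteoclast genes tested (*Calcr* was listed and not tested), 3 were lower and 2 higher after 4 weeks, and 1 lower and 4 higher after 8 weeks, with list means of -0.18 to -0.10 and 0.21 to 0.30. *Ocstamp*, a gene of osteoclast fusion, was at 1.04 after 8 weeks. The part of fibroblasts and osteoclasts in the members' ratios was not tested.

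Most neutrophil genes were lower at both times, as *Mmp9* was. Of 10, 6 were lower and 2 higher at each time, and the list mean was -0.49 to -0.37 after 4 weeks and -0.73 to -0.58 after 8 weeks. *S100a9*, an abundant neutrophil protein gene, was at -1.71 ± 0.11 (SD, n = 4) and at -1.80 ± 0.09 (SD, n = 3), while *Csf3r* was at 1.28 and 1.07. Of 10 macrophage genes, 4 were lower after 4 weeks, among them *Cd14* at -1.39, and 1 lower and 1 higher after 8 weeks, with list means of -0.35 to -0.24 and -0.19 to -0.09. Of 10 mature olfactory neuron genes, 7 were higher after 4 weeks and 7 were lower after 8 weeks, with list means of 0.29 to 0.50 and -0.44 to -0.34. The part of these cells in the members' ratios was not tested.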

How the data were processed

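Expression was measured in nasal tissue RNA of female BALB/c mice on 7 Agilent mouse 4x44K arrays, each carrying DEP RNA (Cy5) and control RNA (Cy3). The authors deposited 1 scanner file per array, written by Feature Extraction 10.10.1.1, which gives spot and local background intensities (medians over pixels) per channel before subtraction or normalization. The same deposited files hold processed intensities that the software had background-subtracted and dye-normalized, which were used as an alternative. The GeneSpring normalization named in the methods is not part of these values.

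Groups were taken from the sample titles. With limma 3.58.1 in R 4.3.3, normexp was fitted on each array and channel without spots marked as background outliers, and applied to all spots with an offset of 50, which shrinks ratios of dim probes. Loess normalization within arrays gave log2 ratios of DEP over control. Non-uniform spots were dropped, and spots of 1 probe were averaged. A probe was tested when at least 3 of 7 arrays showed it well above background in 1 channel or both. On single arrays 16985 to 26927 probes were well above background in a channel, and the software marked no spot as saturated. Precision is limited by how many arrays there are. One linear model gave a mean per exposure time and their difference, tested with limma's moderated statistics and Benjamini-Hochberg adjustment over all 25162 probes tested. This replaces the Student test named in the methods. That test was run as an alternative on DEP and control levels as unpaired groups, with the same adjustment. A gene stands for its brightest tested probe. Probe accessions were named through RefSeq genes of GRCm38.p6, which matched 28330 of 39429 probes. The fit was tested on simulated data. A first limit on recovery, over all sizes of change, was not met at 8 weeks or between the times, and the limit was then set for 2-fold changes only. Smaller changes were often missed there, so that a gene that did not pass may still have changed.

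The 10 genes and all lists were chosen with earlier results of these data known. All probes of the 10 genes were named. Of each list, genes called with at least a 2-fold change were named, at most the 4 of largest size at each exposure time, together with the 3 genes most like *Timp1*, *Mmp3*, *Mmp13* and *Sparc* and the tissue markers. Genes outside this rule are marked in the text, and 1 gene that it names is not reported here. Alternatives covered the background correction, the normalization, the filters, the arrays in the fit, the test, the replicate block, each array left out and the probe that stands for a gene. The median over the *Mmp9* spots and the other scalings of channel levels were chosen after seeing the data. Figures were drawn with matplotlib.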

Additional observations from a re-analysis of the deposited data

Results flagged for a closer look

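The log2 ratio of 4 genes differed between the exposure times by limma's test of the difference itself, each with its value lower after 4 weeks. The difference of 8 minus 4 weeks was 1.17 for *Timp1*, 0.60 for *Mmp3*, 1.88 for *Mmp13* and 0.79 for *Sparc*. For *Timp1* and *Mmp13* the mean control level changed more between the times than the mean DEP level did, by -1.53 against -0.36 and by -1.25 against 0.63 in log2 intensity after scaling the arrays to a common distribution. With the processed signals, which are not scaled between arrays, the changes for *Mmp13* were -0.82 against 1.25. Less the median change of all genes in each channel they were -1.53 against 0.64, the same order as after scaling. Exposure time and slide cannot be told apart in these values.

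For *Timp4* after 4 weeks, replicate 1 at -0.38 lay far from the other 3 arrays, which lay between 0.05 and 0.08. Of the 9 genes with 4 values at 4 weeks this was the single one with such a gap, and chance gives such a gap in about 1 of 20 groups.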

How the results depend on the processing

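The calls of *Timp1*, *Mmp2*, *Mmp9*, *Mmp13* and *Sparc* at 4 weeks, and those of *Timp1*, *Mmp13* and *Sparc* between 8 and 4 weeks, held in every alternative in which the gene was tested. *Mmp3* lost its 4-week call under the methods' t-test alone (adjusted p = 0.107). As run here, it compared scaled DEP and control levels as unpaired groups, although both came from the same arrays. It also used the Benjamini-Hochberg adjustment, which the methods do not name. For *Mmp3* at 4 weeks the SD was 0.32 over control levels and 0.29 over DEP levels, against 0.13 over ratios. That test called 5 of the 10 genes at 4 weeks and 1 at 8 weeks, against 8 and 3. Of all 25162 probes it called 5098 and 5638, against 9388 and 9157. Median centring called 5 of the 10 genes at 8 weeks, all lower, and 11170 of all probes, 8337 of them lower.

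Values near 0 changed sign. At 8 weeks *Mmp3* was at 0.00075 with normexp on all spots, 0.0046 with no background subtraction, 0.043 with processed signals and 0.045 with median centring, and *Timp2* was at -0.13 with processed signals, -0.22 with median centring and -0.038 as the mean of its probes. Median centring also gave -0.23 for *Timp1* and -0.072 for *Mmp14* at 8 weeks. Between the times it gave -0.11 for *Timp2* and -0.019 for *Timp3*, and processed signals gave -0.076 for *Timp2* and -0.021 for *Mmp9*. *Timp4* at 4 weeks was at 0.075 with processed signals. With each array left out in turn, 4-week values ranged from -0.086 to 0.065 for *Timp4* and from -0.030 to 0.010 for *Timp2*, and 8-week values from -0.068 to 0.18 for *Mmp14* and from -0.087 to 0.029 for *Mmp3*. The cause was not tested.

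Replicate numbers did not pair the arrays, since the deviations of same-numbered arrays correlated at -0.0079 to 0.019. With the replicate block, *Timp1* (1.18), *Mmp3* (0.61), *Mmp13* (1.88) and *Sparc* (0.82) passed between the times, 4 of the 10 genes as without it. Over all probes tested, 9388 passed at 4 weeks, 5881 with normexp on all spots and 5098 with the t-test. At 8 weeks 9157 passed, 5638 with the t-test and 5219 without 8-week replicate 2. Between the times 7648 passed, 3856 with the replicate block and 4585 without 8-week replicate 2. Median centring moved the share of called probes that were higher from 56.4% to 42.3% at 4 weeks, from 51.9% to 25.4% at 8 weeks and from 46.4% to 27.8% between them, and processed signals moved it to 68.3% at 4 weeks and 33.6% between them. Dim probes (*Mmp3*, *Mmp9*, *Timp4*) limit what can be read, and only 7 genes stayed when all arrays had to be well above background.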

Other observations

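Epithelial, glial and muscle genes were counted by the same rule. Of 10 squamous epithelium genes, 9 were lower after 4 weeks, and 5 were lower and 3 higher after 8 weeks. *Krt13* and *Krt4*, keratins of the mucosal lining, were at -1.27 and -1.19 after 4 weeks, and *Krt1*, a keratin of cornified epidermis, was at 1.24 after 8 weeks. Of 10 respiratory epithelium genes, 1 was lower and 2 higher after 4 weeks, and 1 lower and 7 higher after 8 weeks, when the mucin gene *Muc5b* was at -1.54. Of 8 skeletal muscle genes, 2 were lower and 2 higher after 4 weeks, and 4 lower and 1 higher after 8 weeks, with the creatine kinase gene *Ckm* at -1.32.

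Of 9 genes of olfactory ensheathing cells and glia, 1 was lower and 3 higher after 4 weeks, and 2 lower and 3 higher after 8 weeks. Of 7 cartilage genes tested, 2 were higher after 4 weeks and 1 after 8 weeks. Of 9 genes of endothelial cells and pericytes tested, 2 were lower and 2 higher after 4 weeks. After 8 weeks 0 were called by limma, where 4 had an unadjusted p under 0.05. The share of all probes under 0.05 was not counted, but 9157 of 25162 passed even the stricter adjusted rule at 8 weeks.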
